A study of Homo sapiens with 20 samples.

Results

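RRM2B, BTG2 and KITLG are 3 target genes of the transcription factor p53 at which p53 peaks over the gene start were called only in MLL4-knockout cells. They are 3 of 19974 protein-coding genes in RefSeq on GRCh38, and were chosen by measured values, namely the p53 peaks of wild-type (WT) and knockout (KO) libraries. For each gene the peaks of 18 deposited lists were taken from the gene body and 100 kb on each side, which gave 329 of 992895 peaks. All groups share 1 host, HCT116, a long-established line of human colon cancer cells, either WT or lacking MLL4. MLL4 is the product of KMT2D and methylates lysine 4 of histone H3. No p53-activating treatment is named in the labels, which also do not say whether the KO line is a clone, and do not say that replicates were separate cultures, so spreads may be technical. Chromatin was immunoprecipitated for p53, H3K27ac and H3K4me3 in 2 libraries per genotype, and for H3K4me1, MLL4 and MLL1 in 1 library per genotype. The series counts 20 libraries with 1 input per genotype. The comparison asks how chromatin marks and p53 occupancy differ without MLL4.

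p53 is a tetrameric transcription factor that binds response elements made of a pair of decamer half-sites, and after DNA damage it activates genes of arrest, repair and apoptosis. RRM2B encodes the p53-inducible small subunit of ribonucleotide reductase, which supplies deoxynucleotides for DNA repair and for mitochondrial DNA. BTG2 encodes an antiproliferative protein that recruits the CCR4-NOT deadenylase to messenger RNAs. KITLG encodes stem cell factor, the ligand of the receptor tyrosine kinase KIT. Response elements have been described in an intron of RRM2B and of KITLG and in the promoter of BTG2. MLL4 is linked to H3K4me1 at enhancers, MLL1 (KMT2A) is a related methyltransferase found at promoters, H3K4me3 marks promoters, and H3K27ac marks active promoters and enhancers.

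The p53 peaks called in KO only covered the starts of all 3 genes, so the promoter sequences of BTG2 and KITLG are shown, from RefSeq on GRCh38.p14. The 250 bases before the gene start are printed 5′ to 3′ on the strand of the gene, at chr1:203305269-203305518 (plus strand) and chr12:88580472-88580721 (minus strand). Capitals mark the C and G of each match to CNNG, 6 bases of any kind and CNNG again, the core letters of a half-site pair without a spacer. This motif reads the same on both strands; matches may overlap.
BTG2 promoter: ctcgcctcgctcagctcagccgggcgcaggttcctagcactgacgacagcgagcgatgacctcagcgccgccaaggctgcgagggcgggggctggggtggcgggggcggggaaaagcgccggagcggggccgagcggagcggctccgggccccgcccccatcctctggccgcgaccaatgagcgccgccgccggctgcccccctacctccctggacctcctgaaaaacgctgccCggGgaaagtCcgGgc
KITLG promoter: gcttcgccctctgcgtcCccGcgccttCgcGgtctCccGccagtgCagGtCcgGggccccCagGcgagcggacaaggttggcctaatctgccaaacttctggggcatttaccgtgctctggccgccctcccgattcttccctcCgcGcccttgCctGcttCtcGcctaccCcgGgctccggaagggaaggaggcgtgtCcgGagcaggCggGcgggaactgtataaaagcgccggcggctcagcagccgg
Within these bases BTG2 held 1 match and KITLG 6. The GC content was 74.8% and 69.2%. In the 300-base window that also takes in 50 bases after the start, BTG2 held 3 matches and KITLG 9. Of 15813 promoters of protein-coding genes, 81.9% held at least 1 match, 47.2% at least as many as BTG2 and 3.52% at least as many as KITLG. The stricter motif of CATG, 6 bases and CATG was in neither promoter and in 0.253% of all.

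The best match to the full p53 consensus, a pair of half-sites with a spacer of 0 to 3 bases, was then located in each window. In BTG2 it lay from base -14 to base 6 counted from the gene start (chr1:203305505-203305524), and in KITLG from -181 to -162 (chr12:88580633-88580652). Capitals mark the bases that fit the consensus.
BTG2 best match: GGGaAAGTCCGGGCAgagCC
KITLG best match: GGACAAGgTTGGcCTAaTCT
BTG2 had 4 mismatches in 20 positions, and 55.9% of promoters had 4 or fewer. KITLG had 3, and 16.0% of promoters had 3 or fewer. These are letters in a window and not measured sites. The p53 region called in KO at each gene covered the whole window searched, so any match would lie inside it. Neither match lay at a KO summit: those of BTG2 were at 203305633 and 203305927, and those of KITLG at 88580227 and 88580115.

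For p53, WT replicates 1 and 2 gave 36525 and 32631 peaks, with median folds of 7.55 and 11.98, and KO replicates 1 and 2 gave 24972 and 62248, with 5.62 and 5.08. Fold is the enrichment over local background that the authors' lists give per peak; each library was called alone, read depth is unknown, and folds are set side by side without a test. MLL4 had 56770 peaks in the WT list against 278 in the KO list. Of 10 colon epithelial markers, 6, among them EPCAM, CDH1 and KRT18, carried H3K4me3 and H3K27ac at the gene start in all 4 libraries of each mark. LGR5 had no H3K27ac peak there and VIL1 no H3K4me3 peak. Of the blood markers, PTPRC and CD3E had no H3K4me3 peak, and SPI1 had both marks in every library. COL1A1 of 4 fibroblast markers and APOA1 of 2 liver markers also had both marks throughout, and PDGFRB had H3K4me3 in 3 and H3K27ac in 4 libraries. Of 2 neuron markers, SNAP25 had H3K4me3 in 4 libraries and H3K27ac in 1, and RBFOX3 had H3K4me3 in 1. The part of these differences in the results was not tested.

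A region is a stretch of overlapping peaks merged over all libraries of a target. Regions were called KO-only when both KO lists and no WT list held a peak, WT-only in the reverse case, and retained when every list did. With 1 library per genotype the same words cover 1 list each. The 3 windows held 15 p53 regions, of which 4 were KO-only, 0 WT-only, 1 retained and 10 mixed, which means any other pattern. Over the genome 4.84% of p53 regions were KO-only, 4.25% WT-only, 19.3% retained and 71.7% mixed. The p53 classes at these genes chose them and are given as description. Of the other regions, 7 were called in KO replicate 2 alone, the longest of the p53 lists.

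**Figure D1:**
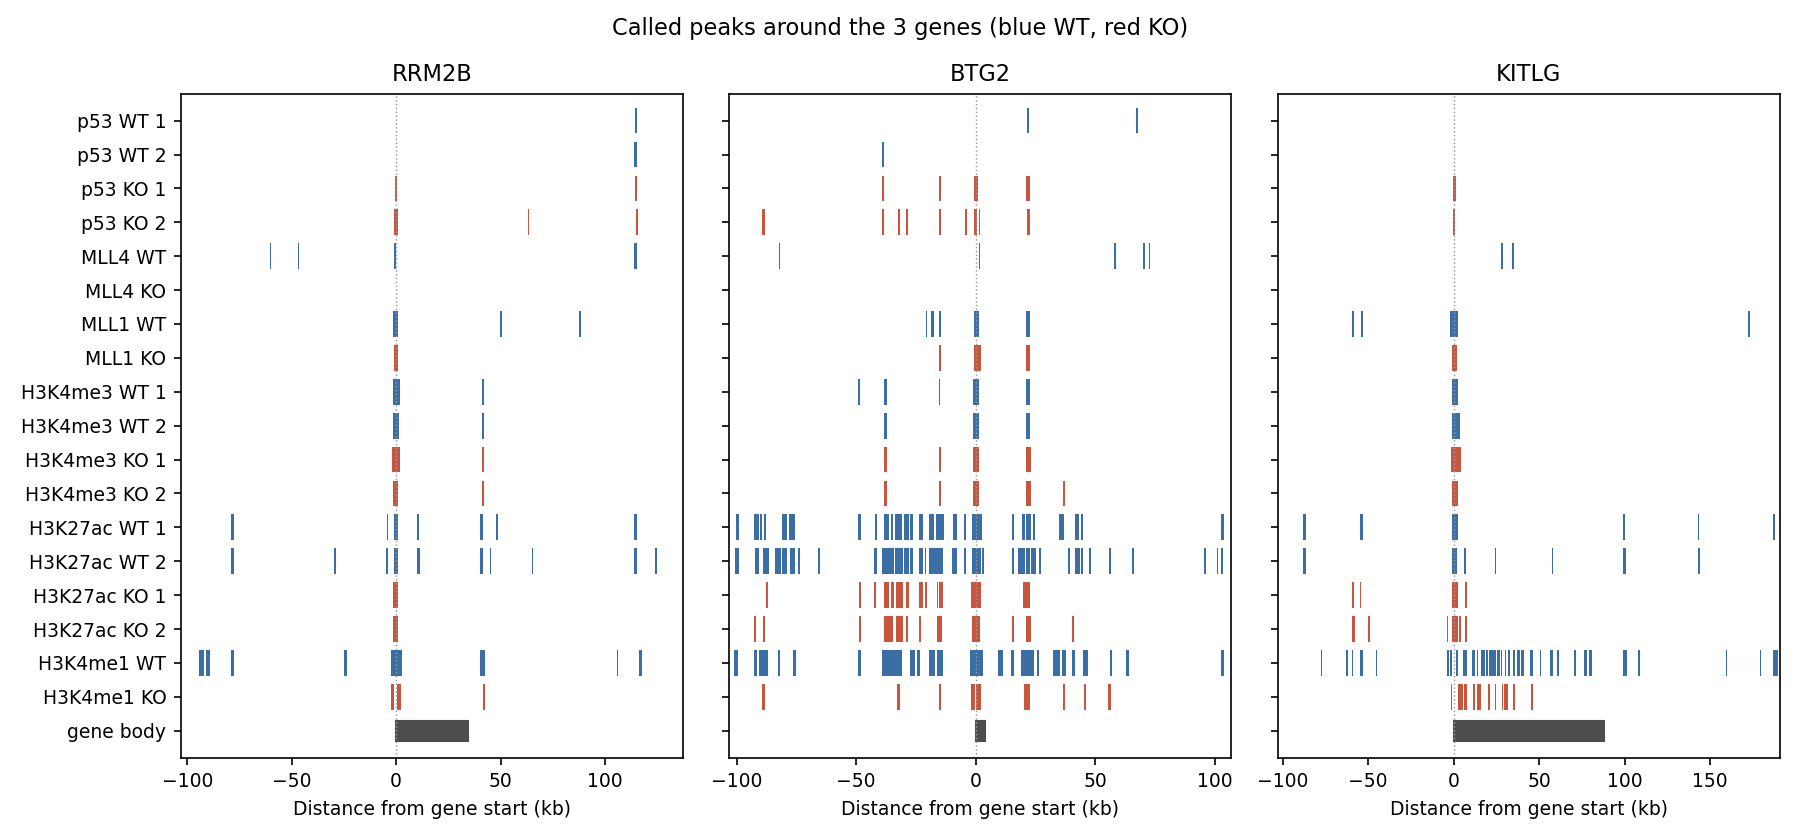
Peaks called in each of the 18 libraries (rows) against distance from the gene start in kb, within 100 kb of each gene body; blue is WT, red is KO, the grey bar is the gene body, and peaks are drawn slightly wider than they are for visibility. p53 peaks at distance 0 appear in KO rows only, while H3K4me3, H3K27ac and MLL1 peaks at distance 0 appear in all their rows.

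RRM2B lies on chromosome 8 from 102204501 to 102238961, and its start was taken as the end at 102238961, where H3K4me3 was called in all 4 libraries. p53 over this start (102238543 to 102239145) had a fold of 4.84 in KO replicate 1 and 6.91 in KO replicate 2 and was not called in either WT library. The summits lay 56 bp on either side of the start. The −log10 q-value was 3.97 in KO replicate 1 and 7.45 in KO replicate 2, against a lowest value near 1.3 in all p53 lists. A further p53 peak at 102239391 to 102239727, upstream of the start, was called in KO replicate 2 alone (4.59). It overlapped the MLL4 peak of WT at this promoter (102239324 to 102239616, 5.17-fold).

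The strongest p53 region of the RRM2B window was another one. It lay at 102123602 to 102124641, 79.9 kb from RRM2B and inside NCALD, close to the upper boundary of that gene at 102124907. NCALD encodes a neuronal calcium sensor, and its strand was not given. WT libraries gave p53 folds of 13.8 and 26.8 here, and KO libraries 7.15 and 8.89. All 4 libraries called it, and both KO values were below both WT values, as at 55.7% of all retained p53 regions. An MLL4 peak of 6.63-fold overlapped it in WT, and H3K27ac was called there in WT (5.01 and 4.59) and not in KO. No H3K4me3 or MLL1 peak was there in any library. The next p53 region beyond the window, 173 kb from the gene, was also retained.

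BTG2 lies on chromosome 1 from 203305519 to 203309602 on the plus strand. p53 over its start (203305110 to 203306311) had folds of 7.08 and 7.62 in the KO libraries and no peak in the WT libraries. The KO summits lay 114 and 408 bp inside the gene, so the call rests on overlapping peaks whose summits differ. The other KO-only region lay upstream at -14.9 kb from the start (203290377 to 203290786), with folds of 5.04 and 4.88. It coincided with weak MLL1 (3.76 in WT, 5.18 in KO) and with H3K27ac in all 4 libraries.

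The BTG2 window also held p53 regions present in 1 WT library. A region at -38.7 kb (203266610 to 203266937) had a fold of 14.8 in WT replicate 2, no call in WT replicate 1, and 6.64 and 6.35 in KO. A region 22.02 kb downstream of the start (203327074 to 203328013) had 5.29 in WT replicate 1, no call in WT replicate 2, and 5.62 and 10.2 in KO. The WT replicates therefore disagreed at both. A peak 67.6 kb downstream (203373055 to 203373279) was called in WT replicate 1 alone (5.29). The remaining 5 regions, with folds from 3.17 to 5.00, were called in KO replicate 2 alone. One of these (203307050 to 203307277) lay inside BTG2 and overlapped the MLL4 peak of WT there (3.33).

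KITLG lies on chromosome 12 from 88492793 to 88580471 on the minus strand. Its window held 1 p53 region, over the gene start (88579643 to 88580797), with folds of 7.44 and 6.97 in KO and no call in WT. The summits lay 244 and 356 bp inside the gene, 112 bp or less from each other. No other p53 peak was called in any library over the 87679 bp of the gene or in the flanks. The nearest one outside, at 213 kb, was called in KO replicate 2 alone.

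**Figure D2:**
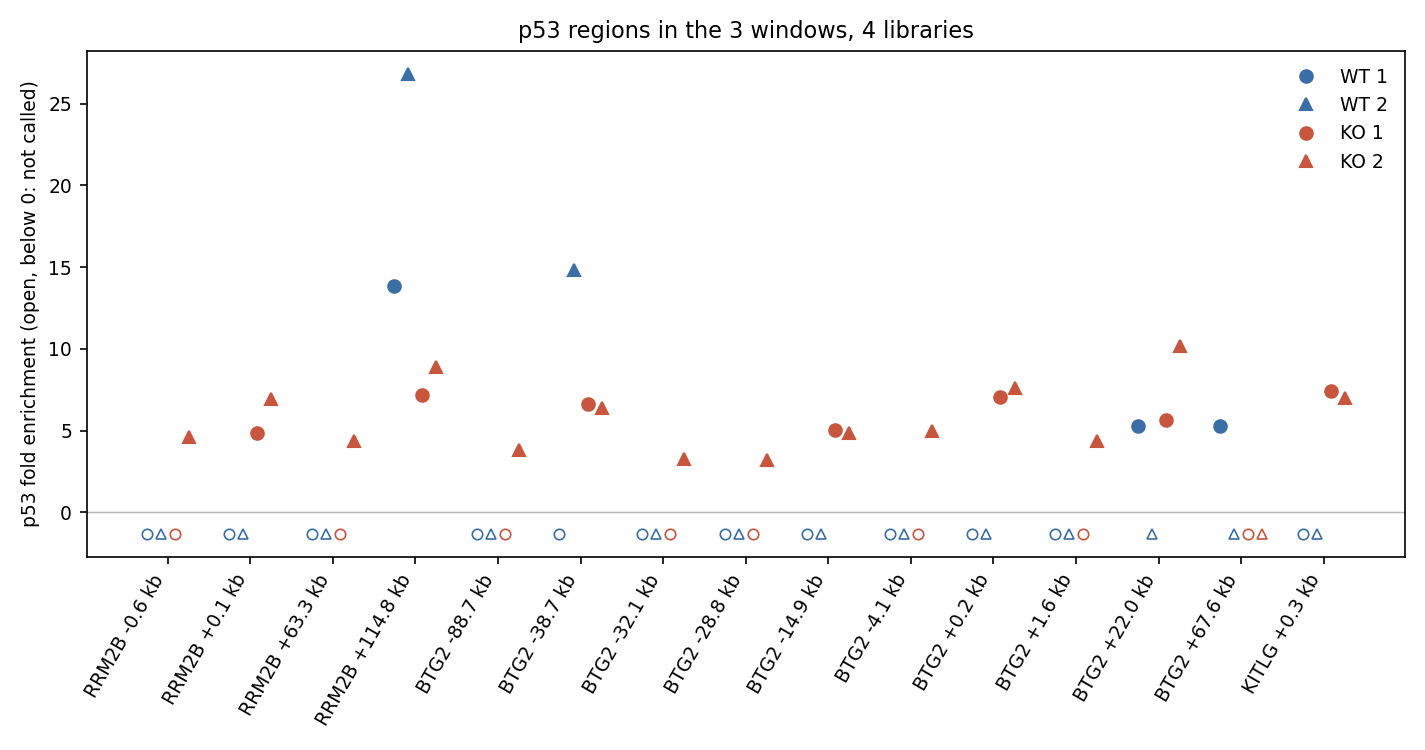
p53 fold enrichment in each of the 15 regions of the 3 windows (labelled by distance of the region's middle from the gene start); circles are replicate 1 and triangles replicate 2, blue WT and red KO, and open symbols below 0 mark libraries without a call. At the 3 KO-only gene-start regions the KO values lie between 4.84 and 7.62 and both WT libraries are open symbols, and the NCALD region at +114.8 kb has the highest values, in WT.

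These folds were within the main range of the KO lists. In KO replicate 1 the peak at RRM2B had a fold as high as or higher than 30.5% of the list, the peak at BTG2 71.4% and the peak at KITLG 76.4%. In KO replicate 2 the shares were 73.5%, 82.7% and 73.7%. Among all 3594 KO-only p53 regions, ordered by the lower of the KO folds, 227 stood above BTG2, 274 above KITLG and 1574 above RRM2B. The median of that lower fold was 4.60. At the stricter −log10 q-value of 5 RRM2B was no longer KO-only, since the peak of KO replicate 1 was under that limit. With summits required within 150 bp BTG2 was no longer KO-only.

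Within 1 kb of the start of 15814 protein-coding genes, 1327 (8.39%) had p53 in both KO and no WT library, and 206 (1.30%) the reverse. Of 9602 starts with H3K4me3 in all 4 libraries, 13.4% were KO-only, 0.187% WT-only and 56.1% had p53 in all 4 libraries. By the lower KO fold, 167 of the 1327 starts stood above BTG2, 188 above KITLG and 785 above RRM2B. KO-only p53 regions overlapped retained H3K4me3 in 58.4% of cases, retained p53 regions in 57.1% and WT-only regions in 2.60%. With settings added after seeing the data, the KO-only and WT-only starts numbered 972 and 565 at the stricter −log10 q-value of 5, and 1530 and 450 when lists were cut to the same length. Without KO replicate 1 the KO-only starts numbered 2392, and without KO replicate 2 the WT-only starts numbered 1083. Without KO replicate 1 the KO-only regions in the 3 windows were 11 in place of 4.

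MLL4 peaks were called in WT only at these genes. The WT library had 4 MLL4 peaks in the RRM2B window, 5 in that of BTG2 and 2 in that of KITLG, with folds from 3.23 to 6.63, and the KO library had none. Over the genome 99.5% of MLL4 regions were WT-only, 0.26% KO-only and 0.214% retained. Within 1 kb of the start, RRM2B had an MLL4 peak and BTG2 and KITLG had none; 35.3% of all starts had one. The RRM2B value of 5.17 stood at percentile 68.0 of the starts with a peak. In KITLG both peaks (3.33 and 3.23) lay in the gene body, 34.7 and 28.3 kb from the start. Only the peak over NCALD passed a −log10 q-value of 5 among these 11.

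MLL1 covered all 3 starts in both genotypes. Its fold at RRM2B was 24.7 in WT and 44.7 in KO, at BTG2 9.13 and 20.1, and at KITLG 32.2 and 51.0. The ratio of KO to WT fold was 1.81, 2.20 and 1.58. The value was higher in KO at 97.8% of the 9041 starts with MLL1 in both libraries, with a median ratio of 3.13. The 3 genes thus stood at percentiles 14.4, 23.5 and 10.3 of that ratio, in its lower part. In WT the MLL1 fold of RRM2B and KITLG stood at percentiles 92.2 and 97.0 of all starts with a peak, and BTG2 at 43.4. MLL1 had 1 library per genotype, so these values have no replicate check.

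Away from the starts MLL1 was mostly called in WT. Over the windows 9 of 15 MLL1 regions were WT-only, 1 KO-only and 5 retained, against 39.1%, 29.4% and 31.5% over the genome. In all 5 retained regions the fold was higher in KO, as in 92.8% of retained MLL1 regions. The 9 WT-only regions were weak (3.46 to 5.13), and none passed a −log10 q-value of 5. In the BTG2 window MLL1 was retained 22.03 kb downstream as well, with 6.98 in WT and 20.1 in KO. The p53 region there is the one called in WT replicate 1 and both KO libraries. The 3 KO-only p53 regions at gene starts and the one at -14.9 kb from BTG2 all overlapped MLL1 in both genotypes. Of all KO-only p53 regions, 66.3% overlapped MLL1 in KO and 55.0% MLL1 in WT. For retained p53 regions the shares were 72.4% and 57.9%.

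The level of MLL1 in KO was set beside the p53 class at the starts. Over 8955 starts with H3K4me3 in all 4 libraries and MLL1 in both, split into 4 bins by MLL1 fold in KO, the share with KO-only p53 was 19.7%, 15.9%, 12.7% and 5.49% from the lowest to the highest bin. The share with WT-only p53 in the same bins was 0.219%, 0.319%, 0.134% and 0.0893%. Starts with p53 in all 4 libraries were not counted per bin, and a relation between MLL1 and p53 was not tested. By KO-only share, BTG2 stood in the bin of 15.9%, and RRM2B and KITLG in that of 12.7%. These shares describe the 4 p53 libraries and 1 MLL1 library, and starts are not replicates.

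H3K4me3 was present at the starts in every library. RRM2B had folds of 151 and 173 in the WT libraries against 114 and 122 in the KO libraries. Both KO values were below both WT values, as at 21.8% of 9602 starts. BTG2 had 127 and 155 against 124 and 156, and KITLG 133 and 173 against 144 and 150, so the genotypes overlapped at both. The ratio of KO to WT fold, as geometric means, was 0.727 at RRM2B, 0.987 at BTG2 and 0.970 at KITLG, with a median of 0.959 over all starts. Of the 9 H3K4me3 regions in the windows 6 were retained, 0 WT-only and 0 KO-only, against 62.9%, 3.70% and 1.78% over the genome.

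H3K27ac at the starts was lower in both KO libraries than in both WT libraries for all 3 genes, as at 87.8% of the 9970 starts with the mark in all 4. RRM2B had folds of 67.3 and 50.8 in the WT libraries against 16.7 and 16.5 in the KO libraries. BTG2 had 28.2 and 29.7 against 16.98 and 14.4, and KITLG 60.4 and 54.2 against 36.4 and 43.8. The ratio was 0.284 at RRM2B, 0.541 at BTG2 and 0.698 at KITLG, against a median of 0.518. RRM2B stood at percentile 6.10 of that ratio, BTG2 at 55.0 and KITLG at 82.3. The 3 genes with p53 called in KO only thus differed in H3K27ac: in KO, RRM2B stood near the median of starts (percentiles 50.7 and 49.8) and KITLG high (89.1 and 93.5).

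**Figure D3:**
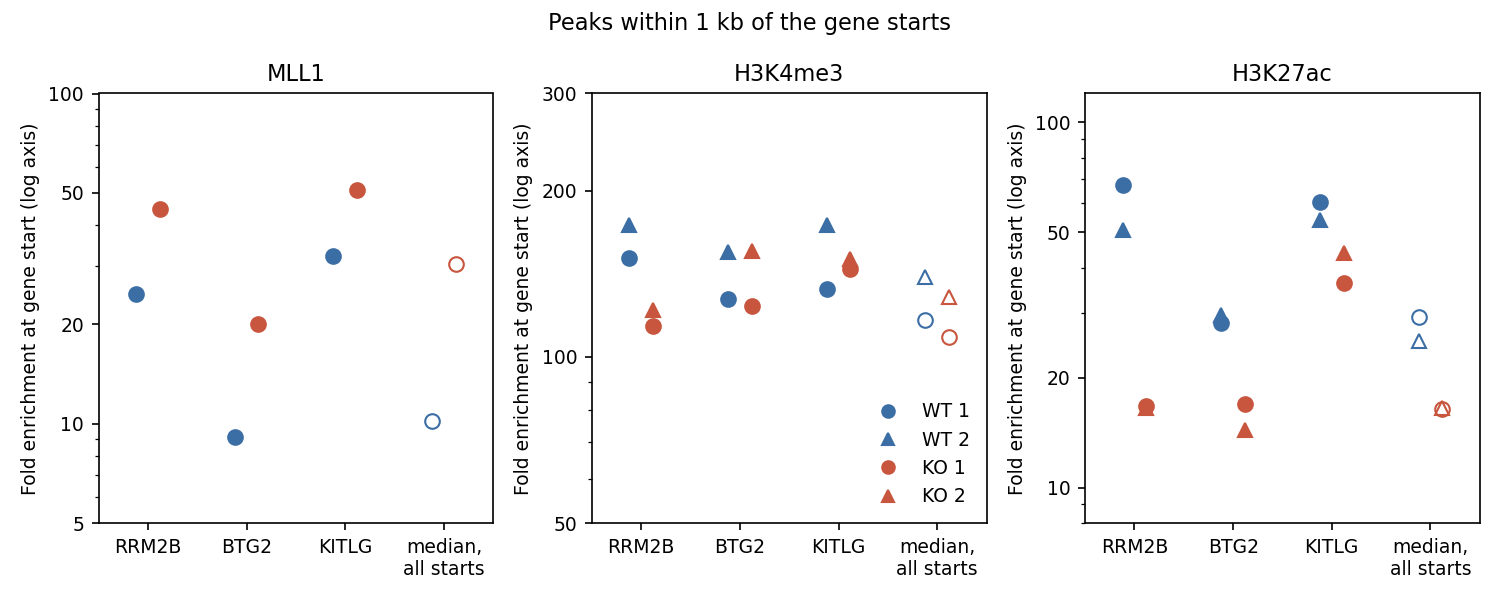
Fold enrichment (log axis) of MLL1, H3K4me3 and H3K27ac peaks within 1 kb of the 3 gene starts in each library, with the median over all gene starts that have a peak as open symbols; blue WT, red KO, circles replicate 1, triangles replicate 2. MLL1 is higher and H3K27ac lower in KO at each gene, and H3K4me3 separates the genotypes at RRM2B only.

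H3K4me1 had 1 library per genotype. In WT a single peak covered the start of RRM2B (102236524 to 102241141) and of BTG2 (203303629 to 203308509), while in KO separate peaks lay on either side of both starts. Within 1 kb of the start its fold was 3.59 in WT and 3.48 in KO at RRM2B and 6.57 and 4.60 at BTG2. KITLG had no H3K4me1 peak that close in either library. Its nearest retained region lay inside the gene, 6.61 kb from the start (88572960 to 88574766), with 7.70 in WT and 3.88 in KO. All 7 retained H3K4me1 regions of the KITLG window were in the gene body.

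Over the whole windows, the KO libraries had fewer H3K27ac and H3K4me1 peaks on average than the WT libraries. H3K27ac peaks numbered 7 and 10 in WT and 1 and 1 in KO at RRM2B, 32 and 45 in WT and 17 and 17 in KO at BTG2, and 7 and 8 in WT and 4 and 7 in KO at KITLG. The groups did not overlap at RRM2B and BTG2 and touched at KITLG. The H3K27ac lists as a whole held 139104 and 198757 peaks in the WT libraries against 65050 and 61959 in the KO libraries, so fewer peaks in KO was a property of the whole lists. The mean difference, KO minus WT, was -7.5, -21.5 and -2. Two-sided exact permutation tests gave p = 0.3333, 0.3333 and 0.667, and 0.3333 is the smallest this design allows; each was 1 after Benjamini-Hochberg adjustment over 6 tests. H3K4me3 peaks numbered 2 in every library at RRM2B and 1 in every library at KITLG, and 5 and 3 in WT and 4 and 5 in KO at BTG2 (exact permutation p = 1 for each).

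By region, 20 of 74 H3K27ac regions in the windows were WT-only, 1 KO-only, 12 retained and 41 mixed, against 27.6%, 0.497%, 13.6% and 58.2% over the genome. At RRM2B 5 of 11 were WT-only and the start was the retained one, so no other H3K27ac peak was called in KO. At BTG2 12 of 48 were WT-only and 10 retained. At KITLG 3 of 15 were WT-only, and the KO-only region (88639144 to 88639619; 3.97 and 3.74), at -58.9 kb from the start, had an MLL1 peak in WT (4.84). When every H3K27ac list was cut to the same length, the WT-only count was 1 and the KO-only count 3.

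H3K4me1 peaks numbered 8 in WT and 3 in KO at RRM2B, 23 and 9 at BTG2 and 33 and 11 at KITLG. The whole lists held 125507 in WT and 43636 in KO. The peaks in the windows covered 12.5 kb in WT and 2.66 kb in KO at RRM2B, 41.8 and 8.41 kb at BTG2, and 30.7 and 10.6 kb at KITLG. The whole lists covered 217.6 Mb in WT and 49.67 Mb in KO. Of 67 regions 47 were WT-only, 3 KO-only and 17 retained, against 72.7%, 6.44% and 20.9% over the genome. The strongest WT-only regions lay at -48.6 kb from BTG2 (203256396 to 203257407; 14.6) and at -78.5 kb from RRM2B (102316960 to 102317920; 12.4). The 3 KO-only regions all lay at KITLG. When both lists were cut to the same length the WT-only count was 9 and the KO-only count 12.

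**Figure D4:**
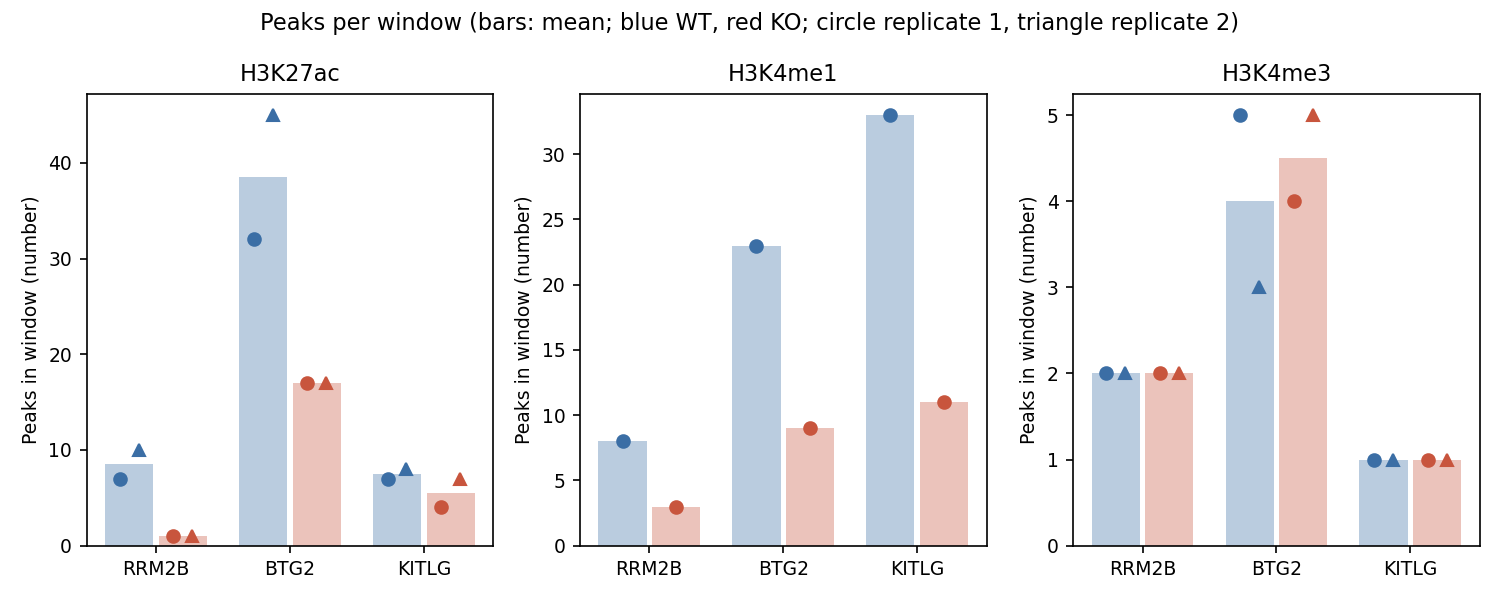
Number of H3K27ac, H3K4me1 and H3K4me3 peaks in the window of each gene; bars are means, points are libraries (circle replicate 1, triangle replicate 2), blue WT and red KO, with 1 library per genotype for H3K4me1. H3K27ac and H3K4me1 bars are lower in KO at each gene, from 8.5 to 1 for H3K27ac at RRM2B, and H3K4me3 bars are level at RRM2B and KITLG.

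In the BTG2 window the marks did not all move with H3K27ac peak number. A region at -37.7 kb, singled out after its values were seen, had H3K4me3 folds of 17.6 and 13.3 in WT and 46.0 and 30.2 in KO (203267376 to 203268259). H3K27ac there had 6.09 and 7.99 in the WT libraries against 13.5 and 17.6 in the KO libraries. Both KO values were above both WT values for H3K27ac at 1.95% of 29149 retained regions, against 79% with both KO values below both WT values, and for H3K4me3 at 17.9% of 15520. It lies at the noncoding gene LOC124904486, next to the p53 region with a WT fold of 14.8 in 1 library. The region 21.98 kb downstream had H3K4me3 folds of 50.4 and 49.7 in WT and 74.8 and 67.5 in KO, also without overlap, while H3K27ac had 28.1 and 24.3 there against 17.5 and 22.05.

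Other p53 target genes were compared by the same windows, from a list of 43 that includes the 3 genes. A KO-only p53 region lay in the window of 17 (39.5%) and a WT-only one in that of 8 (18.6%). Both shares were below the 45.1% and 30.7% of all protein-coding genes. The 17 include the 3 genes, which were chosen for their KO-only regions. The genes named here are ordered by the lower KO fold. They were TNFRSF10B, a death receptor (7.15 and 7.62, 94.3 kb away), then BTG2 and KITLG, the arrest gene CDKN1A (6.41 and 7.16, 82.0 kb), the secreted stress factor GDF15 (6.84 and 6.35, at the gene), the repair gene DDB2 (7.66 and 6.35, 9.33 kb), PHLDA3 (6.64 and 6.35, 12.2 kb), TP53I3 (5.05 and 6.35, 0.055 kb) and the cyclin gene CCNG1 (5.73 and 4.97, at the gene). RRM2B came after these.

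WT-only p53 regions in the windows of listed genes mostly lay far from the gene. They belonged to BAX, a mitochondrial death effector (8.31 and 13.4, 99.7 kb away), ZMAT3 (8.07 and 12.4, 47.6 kb), FDXR (9.06 and 7.05, 79.1 kb), the translesion polymerase gene POLH (9.82 and 7.05, 73.9 kb), TRIAP1 (6.80 and 8.46, 97.7 kb), TIGAR (6.04 and 21.8, 51.2 kb), CDKN1A (5.27 and 6.29, 46.8 kb) and APAF1 (3.58 and 3.30). The last, in the apoptosome gene, was the only one of the 8 on the gene body. The order of the counts depended on the setting. Under the stricter q-value 13 listed genes had a KO-only region and 18 a WT-only one, and without WT replicate 2 the counts were 20 and 23. When lists were cut to the same length they were 20 and 13.

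The p53 class at the start chose the 3 genes, so the other listed genes are given as description. Of the 31 other listed genes with a known start, 22 had p53 there in all 4 libraries, 2 (GDF15 and CCNG1) in KO only, 0 in WT only and 6 in another mix, beside 8.39% KO-only and 1.3% WT-only over all starts. Of starts with H3K4me3 in all 4 libraries, 13.4% were KO-only, 0.187% WT-only and 56.1% had p53 in all 4 libraries. At CDKN1A the p53 folds were 7.55 and 10.3 in the WT libraries and 5.94 and 11.4 in KO, and at MDM2, the ubiquitin ligase of p53, 8.96 and 10.4 in WT and 8.10 and 11.4 in KO. Over 18 libraries, scored as called or not called within 1 kb of the start, the listed gene most like RRM2B was GDF15, which differed in 0 libraries, followed by BTG2 and TP53I3 with 1. TP53I3 differed in having a p53 peak in WT replicate 2 (4.93), and so lay just outside the KO-only class. The gene most like BTG2 was CCNG1 (0), then RRM2B and GDF15 (1 each, MLL4 in WT). The genes most like KITLG were BTG2 and CCNG1 (2 each, both H3K4me1 libraries) and RRM2B (3). Ties were taken in list order. In all, 4 listed genes differed from RRM2B in 1 library, 4 from BTG2 in 1 and 7 from KITLG in 3. The 18 libraries include the p53 libraries that chose the 3 genes.

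Genes that work with each of the 3 were set beside them. Of 18 deoxynucleotide supply genes, 8 (44.4%) had a KO-only p53 region in the window and 3 (16.7%) a WT-only one. Of all protein-coding genes, 45.1% and 30.7% did. The 8 include RRM2B, which was chosen for its KO-only region. The highest were SAMHD1, a dNTP hydrolase (6.84 and 8.06, at the gene), the thymidine kinase gene TK1 (6.56 and 6.62, 26.8 kb away) and DGUOK (6.15 and 6.88, at the gene). WT-only regions lay in the windows of DTYMK (7.55 and 12.7, 95.6 kb away), SLC25A36 (7.55 and 6.34, 71.8 kb) and SAMHD1 (5.29 and 19.03, 60.8 kb). KO-only p53 was at 8.39% of all starts and at 13.4% of starts with H3K4me3 in all 4 libraries. Of the 17 starts of this list 4, DGUOK, RRM1, SAMHD1 and RRM2B, were KO-only, with RRM2B chosen for it. Another 10, RRM2 among them, had p53 in all 4 libraries, beside 56.1% of starts with H3K4me3 in all 4 libraries.

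Of 18 BTG/TOB and CCR4-NOT genes, 10 (55.6%) had a KO-only region and 3 (16.7%) a WT-only one, beside the same 45.1% and 30.7%. The 10 include BTG2, which was chosen for its KO-only region. CNOT2 (8.28 and 8.14) and CNOT8 (6.84 and 7.07), subunits of the deadenylase complex that BTG2 recruits, stood beside BTG2, each at the gene. WT-only regions lay in the windows of TOB1 (13.5 and 40.6, 63.1 kb away), CNOT6 (5.29 and 7.12, 23.4 kb) and PRMT1 (4.14 and 8.46, 56.7 kb). At the starts 4 of 15, BTG2, CNOT8, CNOT2 and TOB1, were KO-only, with BTG2 chosen for it. Beside this stand 8.39% of all starts and 13.4% of starts with H3K4me3 in all 4 libraries. Of 16 genes of KIT and related receptors and ligands, 8 (50%) had a KO-only and 3 (18.8%) a WT-only region, beside 45.1% and 30.7%. After KITLG, which was chosen for its region, came FLT3LG (6.64 and 6.35, 4.09 kb away) and PDGFB (6.27 and 9.04, 74.4 kb). The windows of PDGFA (7.55 and 10.6, 50.9 kb away), FLT4 (5.29 and 7.12, at the gene) and FLT3LG (4.24 and 4.09, 11.1 kb) held WT-only regions. That of FLT4 is the same region as that of CNOT6. At the 11 starts of this list, KITLG alone was KO-only, beside 8.39% of all starts and 13.4% of those with H3K4me3 throughout. PDGFRA, VEGFC, PDGFA, PDGFD and FLT3, 5 of the 11, had p53 in all 4 libraries, beside 56.1% of starts with H3K4me3 in all 4 libraries.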

How the data were processed

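ChIP-seq peaks were called with MACS2 2.1.1 on hg38, per the submitters' processing notes. Names of single peaks record that 1 library at a time was called by the authors against the input of its genotype. For aligner, read filters and depth: not given in the sources used here. The deposited values per peak are a fold enrichment (ratio over local background), −log10 p-value and −log10 q-value, and a score of about 10 times the latter. Peaks on chromosomes 1 to 22 and X were used with Python 3.11.15 and pandas 2.3.3. Regions merged peaks overlapping by at least 1 bp. The merging and class code was run on simulated, well separated peaks, which checks the code and not the classes in these data. Gene starts came from the RefSeq promoter table, which has no entry for RRM2B. The windows, lists and comparisons were chosen with earlier results of these data known. Named genes were the 3 genes throughout, list genes with KO-only or WT-only p53 regions ordered by the lower fold (up to 10 per class for p53 targets, up to 3 for other lists), and the 3 listed genes most like each. A few items that these rules take in are not reported here. Peak numbers were compared with exact permutation tests. Alternatives were stricter −log10 q-values, lists of equal length, summit distance, a 20 kb window, omitted replicates and a replicate block.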

Additional observations from a re-analysis of the deposited data

How the results depend on the processing

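KITLG kept its KO-only p53 region under every alternative run. With −log10 q-values of at least 5, the KO-only count was 0 at the RRM2B start, 18 listed p53 targets had a WT-only region, MLL4 WT-only regions numbered 1 and MLL1 KO-only and WT-only regions 0 and 0. H3K27ac then had 10 WT-only and 7 retained regions, and H3K4me1 0 KO-only, 24 WT-only and 0 retained. Under equal list length, 13 listed genes had a WT-only p53 region, H3K27ac had 3 KO-only and 1 WT-only regions, and H3K4me1 12 KO-only, 9 WT-only and 10 retained. Requiring summits within 150 bp left 0 KO-only regions at the BTG2 start. With windows of 20 kb, retained p53 regions numbered 0, listed genes with KO-only and WT-only regions 10 and 2, H3K27ac KO-only, WT-only and retained regions 0, 7 and 5, and H3K4me1 WT-only regions 20. Counting regions in at least 1 KO and no WT library, chosen after seeing the data, gave 11. The causes were not tested.

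Leaving out each replicate in turn gave 4 to 11 KO-only, 0 to 1 WT-only and 1 to 2 retained p53 regions, the 11 without KO replicate 1. Listed genes numbered 20 to 36 with KO-only and 12 to 23 with WT-only regions. H3K4me3 gave 0 to 1 KO-only and 0 to 1 WT-only regions, and H3K27ac 2 to 6 and 22 to 43. The H3K4me3 peak number at BTG2, KO minus WT, ran from -0.5 (without WT replicate 2) to 1.5. Replicates of the genotypes share only a number; with the replicate block the H3K27ac differences were -7.5, -21.5 and -2 (exact permutation p = 0.5 for each, the smallest possible) and the H3K4me3 differences 0, 0.5 and 0 (exact permutation p = 1). Folds from lists of unknown depth, and 1 library per genotype for MLL1, MLL4 and H3K4me1, limit every comparison.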
